A study of Rattus norvegicus with 8 samples.

Results

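The phagocyte NADPH oxidase was described here through 5 genes, Cybb, Cyba, Ncf1, Ncf4 and Rac2, taken by symbol from the 32623 genes of the deposited count tables, where their identifiers are ENSRNOG00000003622, ENSRNOG00000013014, ENSRNOG00000001480, ENSRNOG00000006940 and ENSRNOG00000007350. The libraries were single-cell suspensions of spinal cord from female Wistar rats of 8 weeks, made with 10x Genomics 3′ chemistry, in which each transcript molecule is counted once by its unique molecular identifier (UMI). Cords of the Mild, Moderate and Severe groups were contused at vertebra T9 by a 10 g weight falling 12.5, 25 or 50 mm, and Sham animals had the laminectomy alone. A 10 mm segment, 5 mm to each side of the lesion, was taken at 7 days, with 2 libraries per group and 8 in all. Contusion of a single level at a single time point limits the model. The study describes its material as a set of cords equal in number to the libraries, but no label ties a library to an animal, so p-values measure the spread between libraries, which may be partly technical. All comparisons with sham share the same 2 sham libraries. Levels are given in CPM, a gene's summed UMIs in all kept cells of a class in a library, scaled to the same total for every sum. A 3′ UMI count does not grow with transcript length, so levels of different genes were set side by side without length scaling, on the assumption that their 3′ ends were captured alike.

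The oxidase moves electrons from cytosolic NADPH across the membrane of a phagosome or of the cell surface and gives superoxide, the source of the respiratory burst by which phagocytes kill microbes. Cybb encodes gp91phox, also called NOX2, the catalytic haem and flavin subunit, and Cyba encodes p22phox, its membrane partner, which stabilizes it. In a resting cell the other subunits stay in the cytosol: Ncf1 encodes p47phox, the organizer that is phosphorylated on activation, Ncf4 encodes p40phox, which binds phosphoinositides of the phagosome, and Rac2 encodes a haematopoietic small GTPase that completes the active complex. Loss of gp91phox, p22phox or p47phox causes chronic granulomatous disease, and in the injured cord microglia and infiltrating myeloid cells are the known sources of this enzyme.

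Promoter windows of RefSeq build GRCr8 were given for 3 of the 5 members and are shown because the levels of the members moved together over classes, with the 250 bases before the annotated start printed in transcript direction. Capitals mark GAGGAA or its reverse complement TTCCTC, the core that PU.1 recognizes, and CCAAT or its reverse complement ATTGG, the CCAAT box. The 2 motifs do not overlap each other in these windows. Coordinates are chrX:16065066-16065315 on the minus strand for Cybb, chr19:67404215-67404464 on the minus strand for Cyba and chr12:28121635-28121884 on the plus strand for Ncf1. Those of Ncf4 and Rac2 are named only.
Cybb: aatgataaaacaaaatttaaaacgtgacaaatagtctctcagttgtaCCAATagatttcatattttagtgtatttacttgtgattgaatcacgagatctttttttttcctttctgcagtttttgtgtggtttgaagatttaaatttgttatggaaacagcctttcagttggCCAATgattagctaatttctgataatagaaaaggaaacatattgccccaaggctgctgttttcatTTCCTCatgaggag
Cyba: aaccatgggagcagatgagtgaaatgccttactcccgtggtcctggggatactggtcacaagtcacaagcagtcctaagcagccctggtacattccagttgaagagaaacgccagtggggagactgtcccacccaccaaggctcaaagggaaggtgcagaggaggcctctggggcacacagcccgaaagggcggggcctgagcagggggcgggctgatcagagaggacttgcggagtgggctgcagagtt
Ncf1: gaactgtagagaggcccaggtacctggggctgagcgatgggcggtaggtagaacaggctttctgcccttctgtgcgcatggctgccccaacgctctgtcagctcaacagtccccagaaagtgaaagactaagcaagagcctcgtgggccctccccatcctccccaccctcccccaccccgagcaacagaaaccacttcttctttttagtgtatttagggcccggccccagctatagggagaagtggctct
The Cybb window held 1 match to the PU.1 core, which began 14 bases before the start, and 2 CCAAT boxes, which began 203 and 79 bases before it. Neither motif had a match in the Cyba or Ncf1 window. Over all 33469 promoter windows of the same 250 bases, 23.3% held the PU.1 core on either strand and 34.0% a CCAAT box, so the matches are a description of these letters and not of binding.

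After filtering 55449 of 68658 barcodes were kept, 2337 to 10009 per library with 23573407 to 99320453 UMIs, and any 2 libraries shared at most 24 barcodes, and at most 0.378% of the smaller. Cells were assigned to classes by the lead of their marker score, and no member is in a marker list, which for macrophages includes Lyz2, Gpnmb and Fn1 and for microglia P2ry12, Tmem119 and Cx3cr1. P2ry12 was detected in 47.9% of cells gated as microglia and Tmem119 in 53.3%, while S100a9 was found in 90.8% of gated neutrophils, Cd79b in 79.6% of B cells and Cd3e in 63.9% of T or NK cells. Of the listed markers in the gene list, 9 of 12 were found in at least 10% of microglia and 12 of 13 in that share of macrophages. It was 12 of 15 for neutrophils, 8 of 10 for B cells and 11 of 13 for T or NK cells. The least detected were Lag3 in microglia (1.65%), Cd163 in macrophages (4.06%) and Ltf in neutrophils (0.0250%). Those of B cells and of T or NK cells were Jchain (9.50%) and Gzmb (0%). The microglia gate held 8955 cells, of which 831 lay within 0.1 of the cut, and the macrophage gate 11752, of which 631 did, so these classes are ranges of a score rather than separate types. The scoring rule was settled after the counts had been seen. Both sham libraries stood apart. Sham 1 consisted to 47.1% of neutrophils and Sham 2 to 78.9% of microglia, against 1.95% to 21.3% and 5.90% to 24.5% in the 6 injured libraries, and Sham 2 held 2 neutrophils. In Sham 1 microglia S100a9, a neutrophil transcript, was at 2343 CPM, against 18.4 to 69.7 CPM in microglia of the other libraries. At the neutrophils' own proportions this amounts to 4.08 CPM of Ncf4 against 222 CPM measured there. For Cybb it was 0.875 against 129 CPM, for Cyba 10.8 against 1437, for Ncf1 2.49 against 48.0 and for Rac2 7.76 against 261. These values assume that free RNA keeps those proportions, and its part in the measured levels was not tested.

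With the 8 libraries pooled, mononuclear phagocytes, that is microglia and macrophages with cells between them, held most of the oxidase message. They supplied 58.0% of all UMIs in kept cells and carried 81.3% for Cybb, 84.7% for Cyba, 83.7% for Ncf1, 64.7% for Ncf4 and 73.1% for Rac2. Pooled neutrophils, with 3.29% of all UMIs, carried 12.6% of the Ncf4 UMIs and 7.68% of the Rac2 UMIs, but 1.27% of the Cybb UMIs. Sham 1 departed from this, since mononuclear phagocytes supplied 9.12% of its UMIs and carried 30.1% of its Cybb, 25.3% of its Cyba, 7.38% of its Ncf1, 12.6% of its Ncf4 and 7.63% of its Rac2. In that library neutrophils supplied 30.2% of all UMIs and carried 48.6% (Cyba) to 78.4% (Ncf1) of each member but Cybb. Of Cybb they carried 21.9%, below their share of all UMIs. In the other 7 libraries the share of mononuclear phagocytes was 42.8% (Ncf4 in Severe 1) to 92.8% (Ncf1 in Sham 2) for any member. These ends are to be read against their share of all UMIs, 44.1% in Severe 1 and 86.3% in Sham 2. Ncf4 in Severe 1 and Cybb in Sham 2, at 85.9%, lay below that share. Neutrophils supplied 0.0717% (Sham 2) to 3.75% (Severe 1) of all UMIs in the same 7 libraries. They carried 0.467% to 19.0% of Ncf4, 0.178% to 7.58% of Rac2 and 0.129% to 1.39% of Cybb there. In the pooled libraries T or NK cells held 3.58% of Rac2 and at most 0.253% of any other member.

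**Figure D1:**
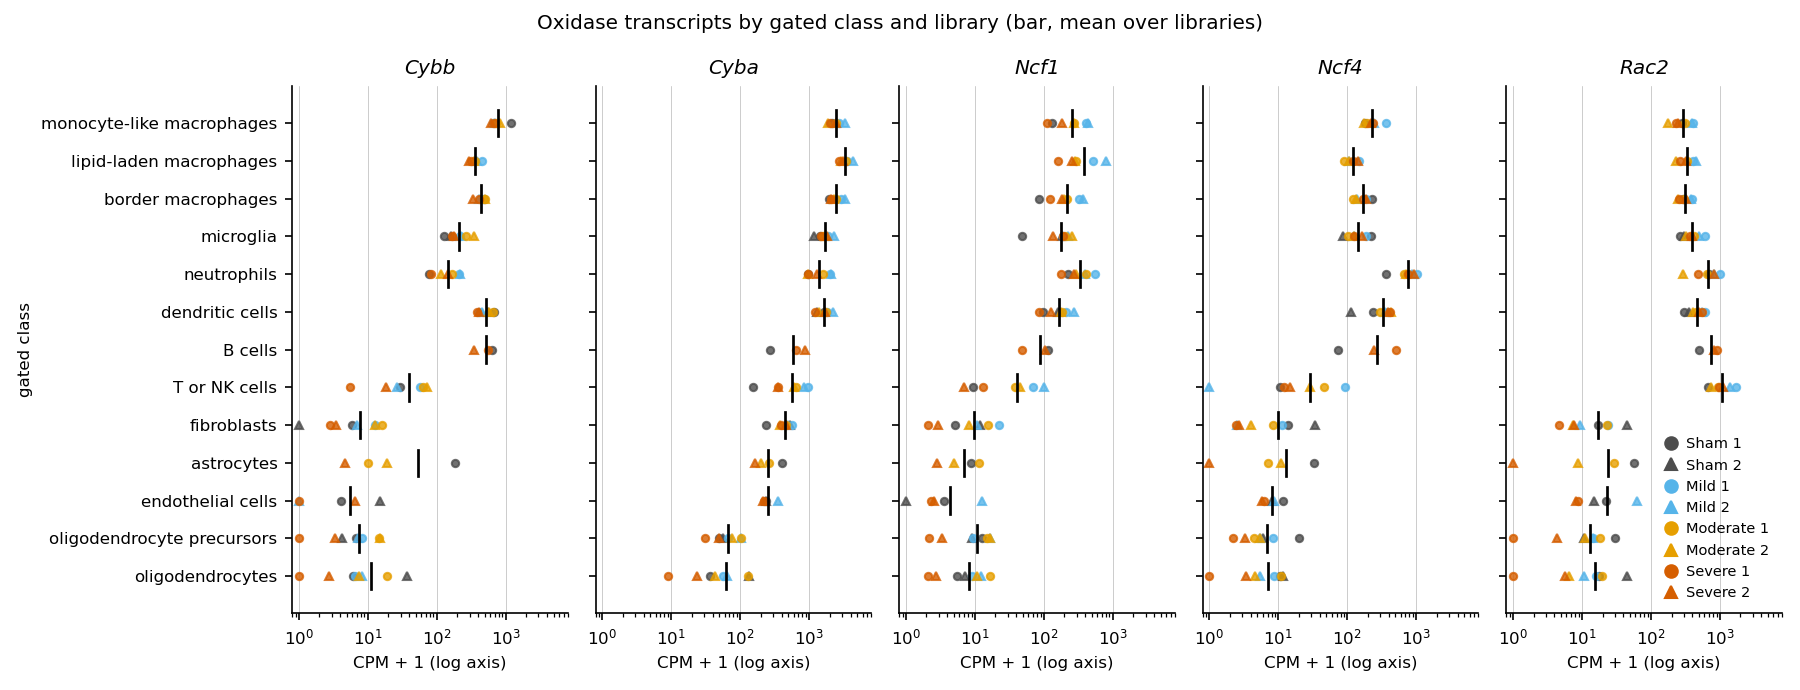
Levels of the 5 members by gated class, as CPM + 1 on a log axis, with a point for each library of at least 20 cells of the class and a bar at the mean over libraries. Cybb was highest in monocyte-like macrophages (777 CPM), Cyba in lipid-laden macrophages (3329 CPM), Ncf4 in neutrophils (767 CPM) and Rac2 in T or NK cells (1086 CPM).

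For the membrane pair the order of classes differed. Neighbouring classes are said to differ beyond their spread where the gap of means exceeds the larger SD over libraries. This rule does not pair classes by library, as the tests between classes further below do. Monocyte-like macrophages were scored on 10 listed markers, of which 7 were in the gene list used and 5 were detected in at least 10% of these cells. Fn1, Vcan and Thbs1 were found most often, F10 in 5.14% and Ifitm6 in 0.0451% of the cells. Ccr2, Plac8 and Chil3 were not in the gene list. Cybb in this state had a lowest, median and highest library level of 622, 702 and 1199 CPM, with a mean of 777 ± 199 (SD, n = 7 libraries). B cells (514 ± 150 CPM, n = 3) and dendritic cells (514 ± 113 CPM, n = 8) followed and did not differ beyond their spread, then border macrophages (442 ± 59.6 CPM, n = 7) and lipid-laden macrophages (361 ± 56.8 CPM, n = 6). Every monocyte-like library lay above every border and lipid-laden library for this catalytic subunit. Microglia had 129, 199 and 344 CPM of Cybb as lowest, median and highest of 8 libraries and neutrophils 77.4, 147 and 220 CPM of 7, ranges that overlapped. Cyba, the most abundant member in phagocytes, reached 2742, 3286 and 4290 CPM in lipid-laden macrophages, with a mean of 3329 ± 559 (n = 6). Border (2423 ± 486 CPM, n = 7) and monocyte-like macrophages (2413 ± 494 CPM, n = 7) did not differ beyond their spread, nor did microglia (1675 ± 329 CPM, n = 8), dendritic cells (1629 ± 328 CPM, n = 8) and neutrophils (1407 ± 489 CPM, n = 7). B cells (591 ± 300 CPM, n = 3) and T or NK cells (559 ± 293 CPM, n = 7) were lower than neutrophils by more than the spread.

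The 2 cytosolic phox genes differed in where they were highest. Ncf1 levels spanned 158 to 787 CPM over 6 libraries of lipid-laden macrophages, 175 to 558.3 CPM over 7 of neutrophils and 48.0 to 259 CPM over 8 of microglia, and from lipid-laden macrophages (382 ± 230 CPM) down to dendritic cells (164 ± 61.3 CPM) no neighbouring classes differed beyond their spread. Within libraries, the test given below called Ncf1 lower in border than in monocyte-like macrophages, a call that did not hold in every alternative. Ncf4 had a lowest, median and highest level of 361, 772 and 1042 CPM in neutrophils, a mean of 767 ± 223 (n = 7). Its next class, dendritic cells, had 112, 370 and 427 CPM, a mean of 327 ± 108 (n = 8), so that 6 of the 7 neutrophil libraries lay above all dendritic ones and Sham 1, at 361 CPM, did not. Monocyte-like macrophages had 231 ± 64.9 CPM of Ncf4 (n = 7), microglia 142 ± 45.5 CPM (n = 8) and lipid-laden macrophages 119 ± 23.0 CPM (n = 6). Rac2, the GTPase of blood cells, had 685, 975 and 1747 CPM in T or NK cells, a mean of 1086 ± 375 (n = 7). B cells (745 ± 214 CPM, n = 3) and neutrophils (681 ± 241 CPM, n = 7) came next without a gap beyond the spread, and microglia (398 ± 112 CPM, n = 8) and the 3 macrophage states (293 to 334 CPM) formed the low end of the immune classes.

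Outside the immune classes, oligodendrocytes served as the measure of free RNA. These cells, which should lack the oxidase, had 10.0 ± 11.7 CPM of Cybb, 7.31 ± 4.91 CPM of Ncf1, 6.04 ± 3.95 CPM of Ncf4 and 14.4 ± 13.7 CPM of Rac2 (n = 8). Astrocytes had 53.2 ± 86.2 CPM of Cybb (n = 4), with 182 CPM in the highest library and a median of 13.4 CPM, and erythroid cells 6.75 to 46.5 CPM of Cybb and 33.4 ± 6.98 CPM of Rac2 (n = 3). Mean Cyba was above that of oligodendrocytes (61.2 ± 46.5 CPM) in several of these classes, with 162 to 400 CPM in astrocytes (n = 4), 214 to 354 CPM in endothelial cells (n = 5) and 50.0 to 268 CPM in erythroid cells (n = 3), and these differences were not tested. Fibroblasts had 235, 463 and 567 CPM of Cyba as lowest, median and highest library level, against 7.95 to 133 CPM in oligodendrocytes, and the ranges did not overlap. In an exact two-sided sign-flip permutation test over libraries on log2(CPM + 1), fibroblasts exceeded oligodendrocytes for Cyba by 3.20 ± 1.19 (SD), in 8 of 8 libraries (p = 0.00781, the smallest this design allows, adjusted p = 0.0234 over 15 tests). Differences for the other 4 members in fibroblasts were -0.26 to 0.43 with exact adjusted p from 0.128 to 0.930. Neutrophils exceeded oligodendrocytes for all 5 members in 7 of 7 libraries, by 4.66 (Cybb) to 7.17 (Ncf4), each with an exact adjusted p of 0.0234. T or NK cells exceeded them in 7 of 7 libraries for 4 members, by 2.01 (Ncf1) to 6.996 (Rac2), each at an exact adjusted p of 0.0234, and for Ncf4 in 5 of 7 libraries by 1.62 ± 2.16 (exact adjusted p = 0.156). Each call over 7 libraries rested on an unadjusted p of 0.0156, the smallest this design allows in the exact test. Median depth was 3107 UMIs in T or NK cells and 1647 in neutrophils, against 10772 in oligodendrocytes. Free RNA can weigh more in cells of low depth, and its part in these differences was not tested. These tests were added after the levels had been seen. The share of all genes that exceed oligodendrocytes in this way is not given, so the counts of members called are not read as a result about the members.

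The share of cells with a UMI was read after each cell had been thinned to 1000 UMIs, since median depth differed from 1647 UMIs in neutrophils to 10352 in microglia and 10772 in oligodendrocytes. Cyba was detected in 95.6% ± 1.12 of lipid-laden macrophages (SD, n = 6), 77.6% ± 7.06 of microglia (n = 8), 70.4% ± 14.8 of neutrophils (n = 6), 34.2% ± 5.98 of fibroblasts (n = 8) and 6.23% ± 2.58 of oligodendrocytes (n = 8). Cybb was found in 50.7% ± 7.98 of monocyte-like macrophages, 35.1% ± 6.71 of dendritic cells, 33.1% ± 9.75 of B cells, 18.1% ± 5.11 of microglia and 11.5% ± 7.66 of neutrophils, against 1.48% ± 2.58 of oligodendrocytes. For microglia, macrophages, dendritic cells and B cells the lowest library share lay above the highest oligodendrocyte share for 5 of 5 members. For neutrophils this held for 4 of 5, since their lowest Cybb share was 5.32% and the highest oligodendrocyte share 7.69%. The share of all genes that separate from oligodendrocytes in this way is not given, so these counts are not read as a result about the members. Ncf4 was found in 53.7% ± 12.1 of neutrophils and 13.4% ± 3.88 of microglia, and Rac2 in 61.9% ± 12.8 of T or NK cells. T or NK cells had a Cybb share of 1.79% ± 1.05, inside the oligodendrocyte range, while their Cybb level in CPM was higher in 7 of 7 libraries, so no order was read from the share. Thinning left out 2334 of 8015 neutrophils and 166 of 8955 microglia, and without it the Cybb share was 62.3% of microglia, 11.1% of neutrophils and 6.63% of oligodendrocytes.

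**Figure D2:**
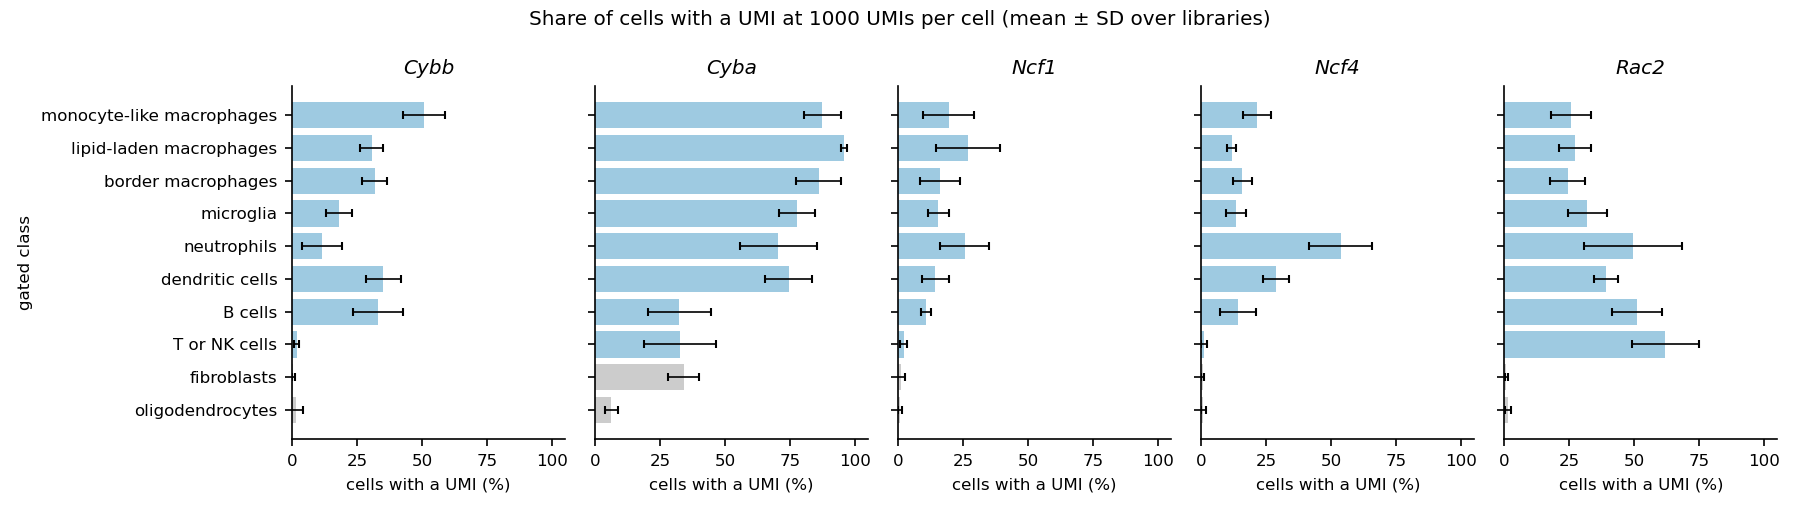
Percent of cells with at least 1 UMI of each member after thinning every cell to 1000 UMIs, as bars of the mean over libraries with the SD as whisker. Blue bars are immune classes and grey bars fibroblasts and oligodendrocytes, where 34.2% and 6.23% of cells had a Cyba UMI and at most 1.48% a UMI of any other member.

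Within single cells at this depth the members were seen together only in part. Of 11687 macrophages, 25.1% had a UMI of 3 or more members and 2.25% of none, and of 8789 microglia 13.7% had 3 or more and 9.59% none. Among neutrophils 21.5% had 3 or more and 4.22% had both Cybb and Cyba, against 33.8% of macrophages and 14.4% of microglia with both. In macrophages Cyba was found in 90.8% of cells with a Cybb UMI and in 92.5% of those without. Likewise Ncf1 was seen in 18.5% of Cybb-positive microglia and 15.9% of the others. These shares are descriptions over cells, which are not replicates.

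Each class was next set against microglia of the same libraries, with the library as a block in edgeR's quasi-likelihood test on summed UMIs, to ask where the oxidase differed between gated classes. Macrophages exceeded microglia for Cybb in 8 of 8 libraries, with ratios of CPM of 1.33, 2.26 and 6.96 as lowest, median and highest, the last in Sham 1. The log2 fold change was 1.54 ± 0.19 for Cybb (SE, adjusted p = 1.26e-05) and 0.95 ± 0.08 for Cyba (adjusted p = 1.63e-07), which was also higher in 8 of 8 libraries. Ncf1 was higher by 0.95 ± 0.19 in 7 of 8 libraries (adjusted p = 0.000645) and Ncf4 by 0.35 ± 0.07 in 6 of 8 (adjusted p = 0.000659). Rac2 had a log2 fold change of -0.12 ± 0.09 (adjusted p = 0.298). Thus 4 of 5 members were called, in a comparison that called 53.4% of all genes tested. Scaling by library size alone lowered the median of all genes by 0.29 on the log2 scale, and with it Ncf4 was no longer called (0.08, adjusted p = 0.343) while Rac2 was called lower (-0.39, adjusted p = 0.00150). Without Sham 1 Rac2 was also called lower (-0.19, adjusted p = 0.0483), and Cybb had a log2 fold change of 1.34 without Sham 1 and 1.48 without Sham 2.

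**Figure D3:**
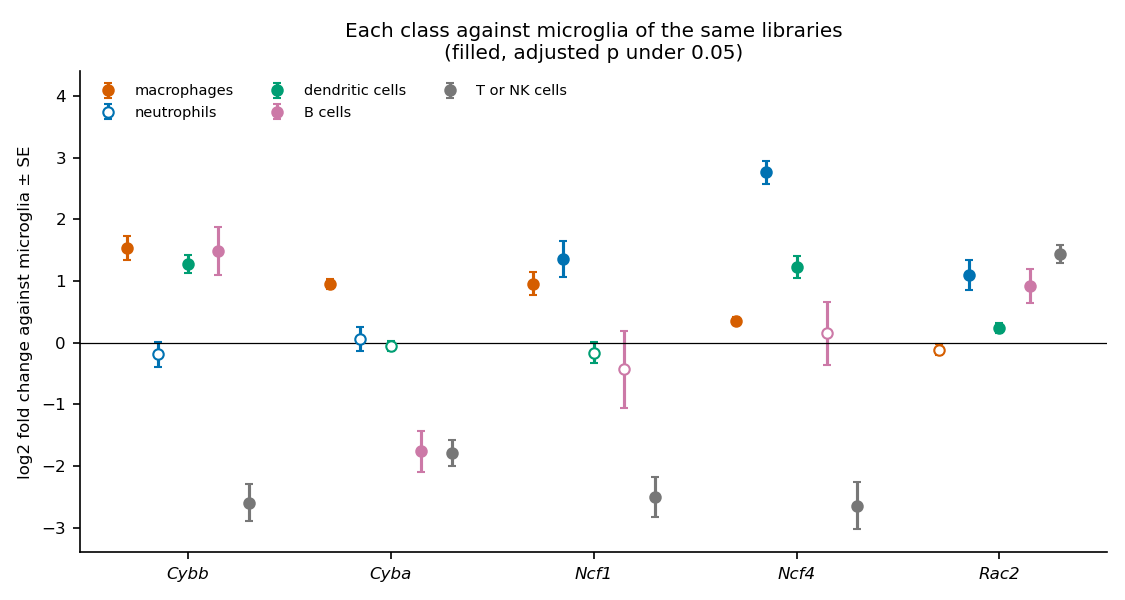
Log2 fold change ± SE of each member in 5 classes against microglia of the same libraries, from edgeR with the library as a block, with filled points for an adjusted p under 0.05. Neutrophils stand highest for Ncf4 (2.76), and T or NK cells lie below microglia for every member but Rac2.

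Neutrophils showed another balance of subunits. Ncf4 was 1.63, 5.76 and 7.04 times the microglial level as lowest, median and highest of 7 libraries, a log2 fold change of 2.76 ± 0.19 (adjusted p = 8.35e-10). Ncf1 was higher by 1.36 ± 0.29 (adjusted p = 0.000506) in 6 of 7 libraries and Rac2 by 1.095 ± 0.24 (adjusted p = 0.000656) in 6 of 7. For the membrane pair no difference was called, with -0.19 ± 0.21 for Cybb (adjusted p = 0.427) and 0.06 ± 0.19 for Cyba (adjusted p = 0.790). The 3 calls of 5 stand beside 69.4% of all genes called. S100a9 alone held 27297 to 207443 CPM in the 7 libraries. Library size alone moved the median of all genes from -0.13 to -0.64 and called Cybb lower (-0.63, adjusted p = 0.0228), as it was in raw CPM in 7 of 7 libraries. Without Sham 1, which supplied 4334 of the 8015 neutrophils, Ncf4 was at 2.89, Ncf1 at 1.06 and Rac2 at 0.86, and these 3 members were again called.

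Dendritic cells were scored on 16 listed markers. Cd74 was found in 99.3% of these cells, Irf8 in 56.3%, Flt3 in 24.4%, Ccr7 in 5.45% and Xcr1 in 4.22%. Dendritic cells exceeded microglia for Cybb by 1.28 ± 0.14 (adjusted p = 5.81e-06) and for Ncf4 by 1.22 ± 0.17 (adjusted p = 5.47e-05), each in 8 of 8 libraries. Their Rac2 was higher by 0.24 ± 0.08 (adjusted p = 0.0220), a call that was lost when Severe 1 or Severe 2 was left out (adjusted p = 0.0967 and 0.0859). For Cyba (-0.06 ± 0.08) and Ncf1 (-0.16 ± 0.17) the tests missed the threshold, so 3 of 5 members were called beside 49.0% of all genes. B cells could be compared in 3 libraries. Their Cybb was higher by 1.49 ± 0.38 (adjusted p = 0.0198), their Rac2 by 0.92 ± 0.28 (adjusted p = 0.0356), and their Cyba lower (-1.76 ± 0.33, adjusted p = 0.00594), which gave 3 calls of 5 beside 32.1% of all genes. Leaving out Severe 1 or Severe 2 ended the Rac2 call (adjusted p = 0.136 and 0.194), and without Sham 1 Ncf1 was called lower (-1.32, adjusted p = 0.0281). In B cells of Sham 1, Cybb was at 636 CPM and Cyba at 269 CPM, of Severe 1 at 559 and 642 CPM, and of Severe 2 at 347 and 862 CPM. T or NK cells were lower than microglia in 7 of 7 libraries for Cybb (-2.59), Cyba (-1.79), Ncf1 (-2.50) and Ncf4 (-2.64) and higher in 7 of 7 for Rac2 (1.44 ± 0.15, adjusted p = 7.52e-07). All 5 members were called there, beside 54.8% of all genes.

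Among macrophages the 3 states were compared in the same way. Lipid-laden macrophages were scored on 10 listed markers, of which 8 were in the gene list used. Fabp4 was found in 97.8% of these cells, Plin2 in 94.8%, Lpl in 31.2% and Mmp12 in 16.7%. Lipid-laden macrophages were lower than monocyte-like ones in 6 of 6 libraries for Cybb, with 622 to 841 CPM in the monocyte-like and 296 to 458 CPM in the lipid-laden cells, a log2 fold change of -0.91 ± 0.09 (adjusted p = 2.46e-06). Ncf4 was lower by a similar factor, -0.93 ± 0.10 (adjusted p = 3.88e-06), also in 6 of 6. In contrast Cyba was higher in 6 of 6 libraries by 0.51 ± 0.07 (adjusted p = 3.97e-05) and Ncf1 in 6 of 6 by 0.44 ± 0.10 (adjusted p = 0.00185). Rac2 was higher in 5 of 6 by 0.27 ± 0.08 (adjusted p = 0.0110). The membrane pair and the cytosolic pair thus each split in direction, and 5 of 5 members were called beside 43.8% of all genes.

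Border macrophages were scored on 10 listed markers, of which 9 were in the gene list used. Folr2 was found in 99.2% of these cells, Mrc1 in 85.6%, Lyve1 in 52.4%, Cd163 in 22.8% and Stab1 in 12.5%. Border macrophages were lower than monocyte-like ones for Cybb in 7 of 7 libraries (-0.86 ± 0.11, adjusted p = 3.20e-05), for Ncf4 in 6 of 7 (-0.57 ± 0.11, adjusted p = 0.000688) and for Ncf1 in 6 of 7 (-0.32 ± 0.10, adjusted p = 0.0248). Sham 1 was the library in which Ncf4 was higher in border cells. Cyba (-0.07 ± 0.09) and Rac2 (0.05 ± 0.09) were not called, and 3 of 5 members passed beside 39.6% of all genes. The Ncf1 call was lost without Mild 1 (adjusted p = 0.0633), without Moderate 1 (0.0519) and without Moderate 2 (0.0919), and with scaling by library size alone (0.0601). Against lipid-laden cells, border macrophages were lower in 6 of 6 libraries for Cyba (-0.55 ± 0.05, adjusted p = 3.93e-06) and Ncf1 (-0.74 ± 0.08, adjusted p = 1.95e-05), higher in 6 of 6 for Ncf4 (0.25 ± 0.06, adjusted p = 0.00285) and lower in 4 of 6 for Rac2 (-0.20 ± 0.06, adjusted p = 0.0115), a call lost without Mild 2 (adjusted p = 0.0527), without Moderate 1 (0.0612) and with library size alone (0.369). Cybb differed by 0.14 ± 0.07 (adjusted p = 0.142) and was called higher with library size alone (0.27, adjusted p = 0.00849), which moved the median of all genes by 0.14, and with the stricter gate (0.24, adjusted p = 0.0338), and 4 of 5 members were called beside 39.3% of all genes. Monocyte-like cells also carried neutrophil markers at a median of 0.4996% of their UMIs, against 0.0637% in lipid-laden and 0.0315% in border cells, and the part of this in the results was not tested.

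**Figure D4:**
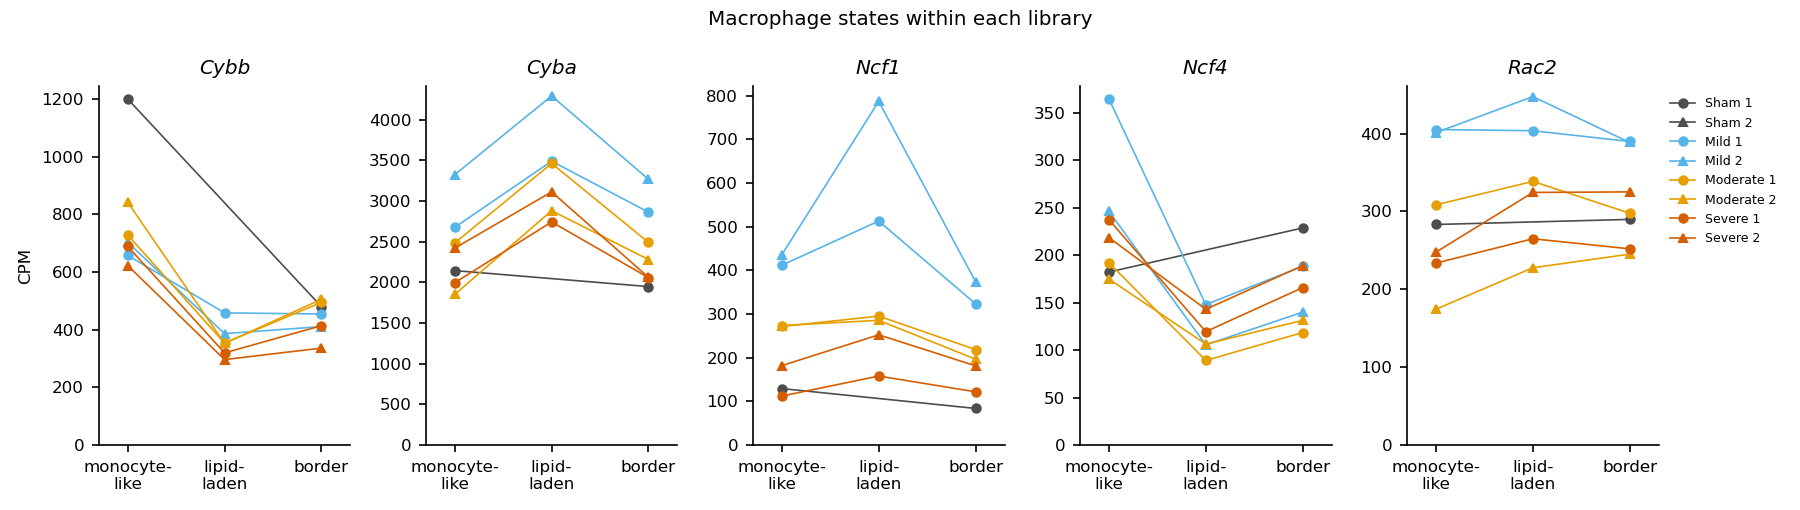
CPM of each member in the 3 macrophage states, with a line for each library that had at least 20 cells of the states joined. Cybb and Ncf4 fall from monocyte-like to lipid-laden cells in all 6 libraries drawn through both, while Cyba and Ncf1 rise in the same 6.

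The balance between members was also read as a ratio of UMIs within each class. Lipid-laden macrophages had 9.30 ± 1.39 Cyba UMIs per Cybb UMI (SD, n = 6), monocyte-like ones 3.28 ± 1.05 (n = 7), microglia 8.42 ± 2.21 (n = 8), dendritic cells 3.31 ± 0.990 (n = 8) and B cells 1.35 ± 1.05 (n = 3). Neutrophils had 10.0 ± 1.53 (n = 7). Ncf4 UMIs per Cybb UMI were 5.68 ± 1.97 in neutrophils, with a lowest library at 3.97, and 0.761 ± 0.441 in microglia, with a highest library at 1.72, so the ranges did not overlap. Such ratios compare classes and do not give the stoichiometry of the proteins.

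The study's main design asked how the cord changed with injury of rising severity. Over all kept cells Cyba was at 593 and 1145 CPM in Sham 1 and 2 and at 1971 and 2131 CPM in Mild, 1886 and 1555 CPM in Moderate and 1329 and 1626 CPM in Severe. All 6 injured libraries lay above both sham libraries, and so did those of Cybb, at 107 and 178 CPM in sham and 218 to 310 CPM after injury. How many of all genes separated in this way is not given, here or for the classes below. In edgeR with 4 groups in 1 fit, however, 0 of 5 members were called in each injured group, with log2 fold changes for Cyba of 1.11 ± 0.49 (Mild), 0.77 ± 0.49 (Moderate) and 0.93 ± 0.49 (Severe) and a lowest unadjusted p over the members of 0.0582. Among all genes 0% were called in Mild, 0% in Moderate and 0.371% in Severe, although 3673, 3028 and 3043 genes had an unadjusted p under 0.05. DESeq2 likewise called 0 members, and 2044, 1509 and 1354 genes. Without Sham 2 the log2 fold changes of Cybb and Cyba in each injured group and of Ncf1 in Mild were 1.35 to 1.85. Fits without a sham library set the injured groups against 1 library, and the share of all genes called in them is not given, here or below. In sums over all cells, fewer cells of a type and less RNA per cell cannot be told apart.

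Within mononuclear phagocytes Cyba was called higher in Mild and in Severe, calls that did not hold in every alternative, and members were not tested against one another. It was at 1645 and 1213 CPM in Sham 1 and 2, 2659 and 3119 CPM in Mild, 2345 and 2309 CPM in Moderate and 2221 and 2341 CPM in Severe. All 6 injured libraries lay above both sham libraries. The log2 fold change was 1.14 ± 0.26 in Mild (adjusted p = 0.0422) and 1.18 ± 0.26 in Severe (adjusted p = 0.0343), and 0.80 ± 0.25 in Moderate missed the threshold (adjusted p = 0.127). Calls of members were thus 1, 0 and 1 of 5, beside 6.59%, 2.53% and 7.86% of all genes in Mild, Moderate and Severe. The 2 Cyba calls were close to the threshold: scaling by library size gave adjusted p of 0.0553 and 0.0968, and leaving out any single injured library ended both, with adjusted p of 0.0648 to 0.269 in Mild and 0.0730 to 0.127 in Severe. Without Sham 2 Cyba had adjusted p of 0.0520 in Mild and 0.0419 in Severe, and without Sham 1 0.0300 and 0.0277.

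The makeup of this population moved with the groups. Macrophages were 26.3% of mononuclear phagocytes in Sham 1 and 2.33% in Sham 2, against 42.5% to 67.8% in the injured libraries, and Cyba was higher in macrophages than in microglia in 8 of 8 libraries. Inside microglia Cyba had log2 fold changes of 0.67 ± 0.28, 0.26 ± 0.28 and 0.69 ± 0.28 in Mild, Moderate and Severe, and inside macrophages of 0.92 ± 0.31, 0.54 ± 0.31 and 0.79 ± 0.31, none of them called. For Cyba all 6 injured libraries lay above both sham libraries in each class, at 1505 to 2270 against 1193 and 1437 CPM in microglia and at 2421 to 3959 against 1810 and 2106 CPM in macrophages. The part of the makeup in the Cyba calls was not tested. Ncf1 in mononuclear phagocytes was at 68.9 and 184 CPM in sham, 343 and 415 CPM in Mild, 242 and 255 CPM in Moderate and 155 and 184 CPM in Severe. The Severe libraries lay within the range of sham, and the log2 fold changes of 1.61 ± 0.48, 0.97 ± 0.48 and 0.84 ± 0.48 were not called (adjusted p = 0.0778, 0.272 and 0.276). Without Sham 2 they were 2.74, 2.09 and 1.96. Cybb (0.58, 0.66 and 0.86), Ncf4 (0.26, -0.27 and 0.60) and Rac2 (0.82, 0.17 and 0.60) were not called in any injured group. In Severe against Sham, scaling by library size alone moved the median of all genes from -0.087 to -0.566. Group means in Severe and Sham were 332 and 265 CPM for Cybb, 159 and 153 CPM for Ncf4, and 311 and 286 CPM for Rac2. Without Sham 1 the log2 fold changes of Cybb were 0.98, 1.04 and 1.26, and that of Ncf4 in Severe was 1.23. DESeq2 added Ncf1 in Mild and Cyba in Moderate, and the share of all genes it called in these 2 comparisons is not given. Between severities 0 of 5 members were called for Moderate against Mild, where 0% of all genes were (1711 at an unadjusted p under 0.05 and 208 by DESeq2), and 0 of 5 for Severe against Moderate, where 1.73% were. The lowest unadjusted member p there was 0.0439, for Ncf4 in Severe against Moderate (0.87 ± 0.37), and DESeq2 called 0 members in both. Library size alone moved the median of all genes in Severe against Moderate from -0.074 to -0.488.

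**Figure D5:**
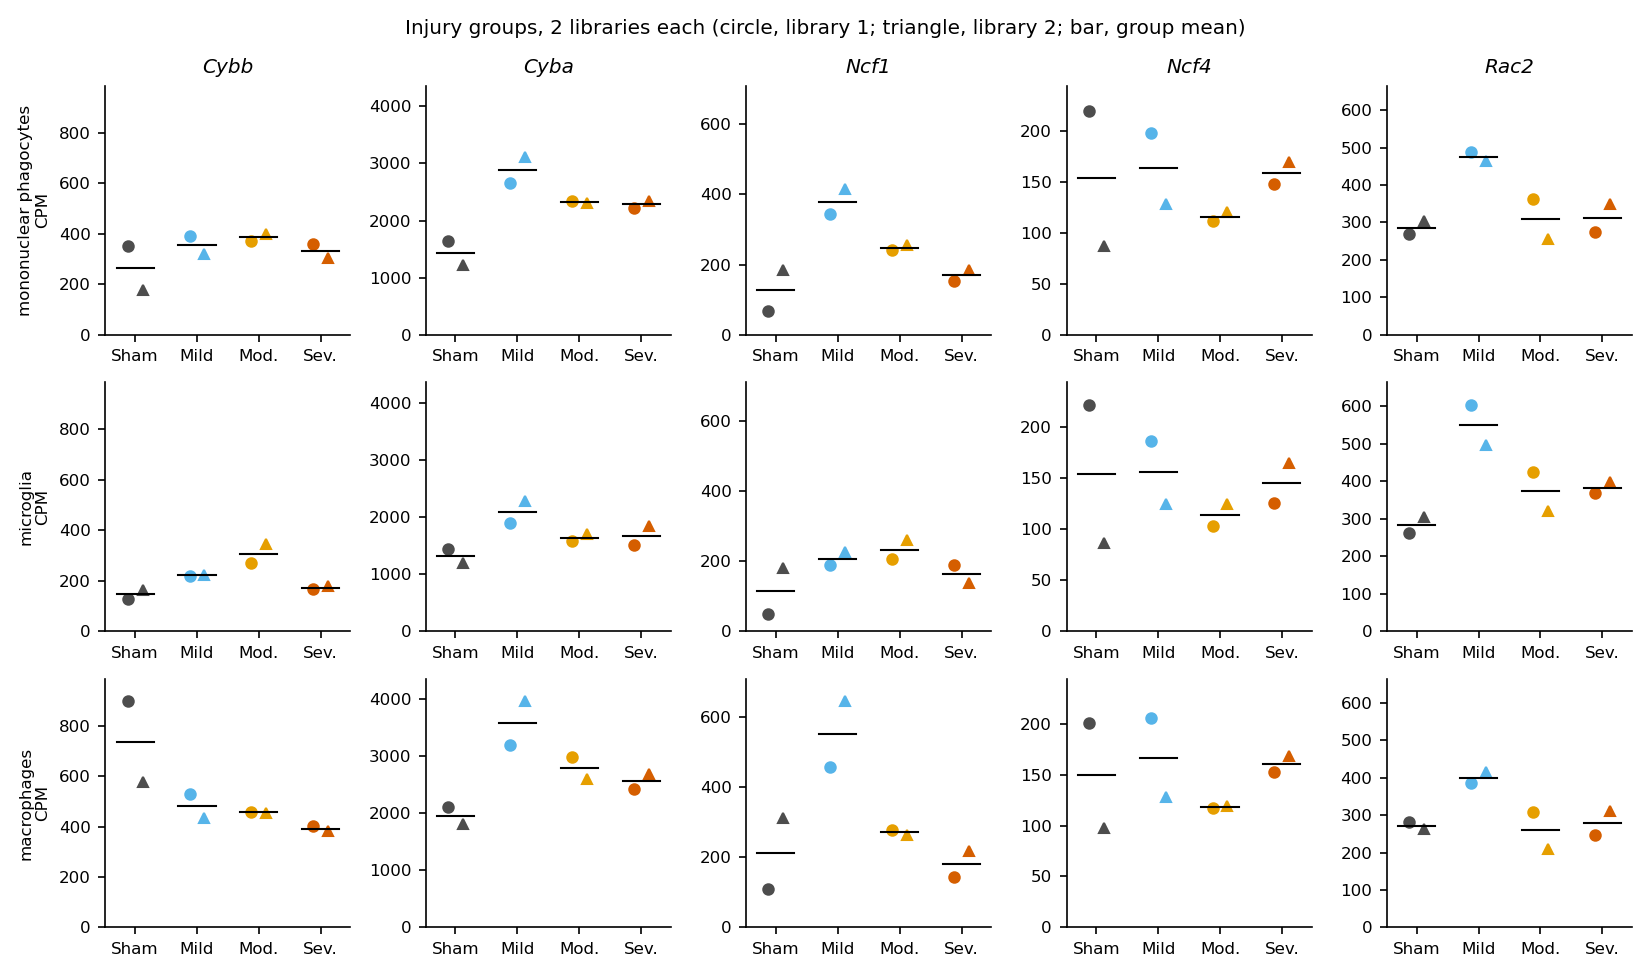
CPM of each member in mononuclear phagocytes, microglia and macrophages by injury group, with a point for each of the 2 libraries and a bar at the group mean. Cybb lay above both sham libraries in the 6 injured libraries of microglia and below both in the 6 of macrophages. The share of all genes that separate in this way is not given.

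In microglia Cybb was at 129 and 162 CPM in Sham 1 and 2, 220 and 224 CPM in Mild, 270 and 344 CPM in Moderate and 166 and 179 CPM in Severe, so that all 6 injured libraries lay above both sham libraries. In macrophages it was at 896 and 576 CPM in Sham 1 and 2, 527 and 433 CPM in Mild, 459 and 455 CPM in Moderate and 404 and 380 CPM in Severe, so that all 6 lay below. In edgeR 0 of 5 members were called in microglia, beside 0.693%, 0.154% and 1.25% of all genes in Mild, Moderate and Severe, and 0 of 5 in macrophages, beside 1.35%, 0.0423% and 1.71%. For Cybb the log2 fold changes were 0.57 ± 0.29, 0.98 ± 0.29 and 0.56 ± 0.29 in microglia, with unadjusted p of 0.0790, 0.00801 and 0.0887, and -0.57 ± 0.28, -0.65 ± 0.28 and -0.50 ± 0.28 in macrophages. In Severe, library size alone moved the median of all genes from -0.11 to -0.44 in microglia and from 0.12 to -0.29 in macrophages. At an unadjusted p under 0.05 there were 2, 1 and 2 members in microglia and 2, 1 and 1 in macrophages. The share of all genes under that threshold is not given, so these counts are not read as a result about the members. DESeq2 called 0 members in microglia and, in macrophages, Cyba in Mild, and the share of all genes it called is not given. The difference between the 2 classes was tested by a term for class and injury in 1 fit, added after these levels had been seen, which gave -1.25 ± 0.28 for Cybb (unadjusted p = 0.000869, adjusted p = 0.106) and called 0 of 5 members and 0.184% of all genes. It rested on the sham libraries, with 99 and 45 macrophages: without Sham 1 it was -0.67 (adjusted p = 0.515) and without Sham 2 -1.96 (adjusted p = 0.0112). Of the macrophages 52.5% were monocyte-like in Sham 1 and 6.67% in Sham 2, against 10.7% to 28.6% after injury, and the part of this in the result was not tested.

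Rac2 in microglia was at 261 and 306 CPM in sham, 604 and 498 CPM in Mild, 426 and 321 CPM in Moderate and 369 and 398 CPM in Severe. These 6 injured libraries also lay above both sham libraries, and the log2 fold changes of 0.93 ± 0.30, 0.32 ± 0.30 and 0.75 ± 0.30 were not called (adjusted p = 0.122, 0.628 and 0.241). Ncf1 in microglia was at 48.0 CPM in Sham 1 and 181 CPM in Sham 2, so its groups overlapped. Without Sham 2 the log2 fold changes of Ncf1 in the 3 injured groups of microglia were 2.29, 2.39 and 2.28. Those of Rac2 in Mild and Cybb in Moderate were 1.27 and 1.38.

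Neutrophils could be compared with Sham 1 alone, which in the fit was assumed to vary like the other groups. Ncf4 was at 361 CPM there and at 1042 and 879 CPM in Mild, 655 and 717 CPM in Moderate and 772 and 942 CPM in Severe, all above Sham 1. After scaling the log2 fold changes of Ncf4 were 0.39 ± 0.47, 0.08 ± 0.46 and 0.67 ± 0.47, and 0 of 5 members were called, beside 14.9%, 8.64% and 17.0% of all genes in Mild, Moderate and Severe. Scaling by library size alone moved the median of all genes by 0.99, 0.84 and 0.56 on the log2 scale, and Ncf4 (1.42, adjusted p = 0.0386) and Cybb (1.49, adjusted p = 0.0325) were then called higher in Mild. S100a9 was at 207443 CPM in neutrophils of Sham 1 and at 27297 to 70549 CPM in those of the injured libraries, and its part in this was not tested. Rac2 in Moderate was at 645 and 290 CPM against 687 CPM, a log2 fold change of -1.44 ± 0.51 with an unadjusted p of 0.0121 (adjusted p = 0.0930), the 1 member test of 15 under 0.05, and DESeq2 called 0 members in the 3 groups. It was called lower without Severe 1 (-1.44, adjusted p = 0.0429) and without Severe 2 (-1.50, adjusted p = 0.0260). Without Moderate 1 the fit gave -1.99 (adjusted p = 0.0205), but this sets 1 library against 1, with the spread taken from the Mild and Severe groups alone.

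Partners of the oxidase were read from lists of 74 genes, 71 of them in the files, and are given as counts with genes of high CPM in the class. Of the enzymes that act on superoxide and peroxide, 10 of 12 tested were higher in macrophages than in microglia and 0 were lower, with a median log2 fold change of 0.68 against -0.0037 over all genes, in a comparison that called 53.4% of all genes in either direction. The counts of the next 3 lists are to be read against the same share. The enzymes that were higher included the peroxiredoxin Prdx5 (4503 CPM, 2.62 ± 0.10), the glutathione peroxidase Gpx1 (3583 CPM, 1.50 ± 0.07), Prdx1 (1692 CPM, 0.72 ± 0.09) and the thioredoxin Txn1 (1098 CPM, 1.43 ± 0.09). Receptors that trigger the burst split, with 6 higher and 6 lower of 16, C5ar1, the C5a receptor, at 235 CPM (1.64 ± 0.10) and Fcer1g, the signalling chain of Fc receptors, at 2783 CPM (0.18 ± 0.08, not called). Of the genes for activation of the complex 1 was higher and 7 were lower of 16. The higher one was Syk, a kinase downstream of Fc receptors, at 43.0 CPM (0.64 ± 0.07). Of the transcription factors 3 of 7 were higher, including Cebpb (1306 CPM, 0.73 ± 0.09), and 2 lower, while Spi1, which encodes PU.1, differed by 0.07 ± 0.08 (297 CPM, not called).

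In neutrophils 13 of 17 receptor genes were higher than in microglia and 3 lower, with a median of 1.32 against -0.13 over all genes and 69.4% of all genes called in either direction. Clec7a, the beta-glucan receptor Dectin, was at 901 CPM (2.58 ± 0.24) and C5ar1 at 437 CPM (2.45 ± 0.20). Of the transcription factors 5 of 7 were higher, among them Cebpb (4441 CPM, 2.68 ± 0.25), with Spi1 at 454 CPM (0.77 ± 0.20) and Cebpe, a factor of granulocyte maturation, at 183 CPM (6.47 ± 0.74). Enzymes were mixed, with 5 higher and 4 lower of 11, Sod2, the mitochondrial superoxide dismutase, at 2775 CPM (2.31 ± 0.27). In T or NK cells 14 of 15 receptor genes tested were lower and 0 higher, beside 54.8% of all genes called, and in B cells 11 of 13 were lower and 0 higher, beside 32.1%. From monocyte-like to lipid-laden macrophages 11 of 15 receptor genes were lower and 1 was higher, beside 43.8% of all genes called, and Cebpb was lower (-1.17 ± 0.13). Of other oxidases, Nox4 averaged at most 2.22 CPM and Nox1 at most 1.64 CPM in the classes read for these lists. Those were the immune classes, oligodendrocytes and fibroblasts. Endothelial cells, astrocytes, oligodendrocyte precursors, erythroid cells and neurons were not read. Rac1, the widely expressed relative of Rac2, averaged 467 ± 55.8 CPM in microglia and 295 ± 46.5 CPM in fibroblasts. In mononuclear phagocytes after Severe injury, where 7.86% of all genes were called, Gpx1 was the 1 of 12 enzymes called higher (1.78 ± 0.29, adjusted p = 0.0138), C5ar1 the 1 of 16 receptors called higher (1.63 ± 0.39, adjusted p = 0.0432), and Tlr4 (-2.06 ± 0.33) and P2rx7 (-2.41 ± 0.52) were called lower. These genes were named after their values had been seen. Inside microglia 0 of 12 enzymes and 0 of 15 receptors were called in Severe, beside 1.25% of all genes. Inside macrophages 0 of 12 enzymes and 1 of 16 receptors were called, the latter lower, beside 1.71% of all genes. Macrophages were 26.3% and 2.33% of mononuclear phagocytes in Sham 1 and 2 and 67.8% and 53.0% in Severe 1 and 2. The part of this makeup in the calls for mononuclear phagocytes was not tested.

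Over 82 sums of a class in a library the members followed one another, with Pearson's r of log2(CPM + 1) from 0.784 (Ncf4 with Cyba) to 0.866 (Cybb with Ncf1). Sums of a library share its depth and free RNA, so r is a description. Among 7626 genes the most alike to Cybb were Tbxas1 (r = 0.901), Slamf9, Ptpn6, Ms4a6a and LOC691141, and to Cyba Ctsc (r = 0.932), Pycard, Rnaset2, Ifi30 and Gpx1. Among the 5 most alike to Ncf1 were Spi1 (r = 0.938), Dok3, Tyrobp and Myo1f, and Ncf4 was most like Nfam1 (r = 0.937), Tyrobp, Spi1, Themis2 and AABR07021402.1. For Rac2 they were Coro1a (r = 0.975), Arhgap9, Laptm5, Hcls1 and Was. Spi1 and Tyrobp were in the lists of both cytosolic phox genes, and no gene was in the lists of both membrane subunits.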

How the data were processed

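Single-cell RNA of 8 libraries was counted by the authors with Cell Ranger, version 5.0.1 in the headers of the deposited tables and 6.0.1 in the supplementary methods, on rat build Rnor_6.0. The deposited values are raw UMI counts per gene and cell. Cells with over 10% mitochondrial UMIs, the 7.7% with the highest Scrublet scores in scanpy 1.11.5, and cells beyond 2 SD of their library's mean UMIs or genes were removed, which left 55449 cells. Each cell was scored on 17 marker lists (186 genes, 173 in the files) and assigned where the lead was at least 0.25 with at least 3 markers detected. UMIs were summed per library and class with at least 20 cells and tested over all genes with the quasi-likelihood test of edgeR 4.0.16 in R 4.3.3 (TMM, low-count filter, Benjamini-Hochberg adjustment, threshold 0.05), with groups or, between classes, libraries as blocks. SE is the log2 fold change divided by the root of F. DESeq2 1.42.0 was an alternative. Shares came from cells thinned to 1000 UMIs. Deposited totals were 31482153 to 131045446 UMIs per library, which limits low genes most, and free RNA is counted with cells. Exact tests used scipy 1.17.1. Scripts were tested on simulated data. The named genes are the 5 members, at most 4 genes of highest CPM per partner list and the 5 genes most alike to each member among those with at least 10 CPM, and any other gene was chosen after its values were seen. Members and lists were chosen with earlier results of these data known. A gene most alike to a member is not reported here.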

Additional observations from a re-analysis of the deposited data

Results flagged for a closer look

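Of 40 levels of a member in a class that could be checked, 3 had 1 library far from the others, where chance gives about 1 in 20. Cybb in macrophages was at 896 CPM in Sham 1, with the nearest of 8 libraries at 576 CPM, a gap of 0.621 of the whole range. Cybb in monocyte-like macrophages was at 1199 CPM in Sham 1, with the nearest of 7 libraries at 841 CPM (0.620 of the range). Monocyte-like cells were 52.5% of the Sham 1 macrophages, so both Cybb flags rest in part on the same cells. The levels checked are thus not independent. Ncf4 in monocyte-like macrophages was at 364 CPM in Mild 1, with the nearest at 246 CPM (0.624 of the range).

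Cybb after injury lay above sham in microglia and below sham in macrophages, and the difference between the classes was -1.25 on the log2 scale (edgeR adjusted p = 0.106). In 5 further cases both libraries of one group had a ratio of CPM above 1 and both of another a ratio below 1, and these differences were not tested. Neither the number of comparisons searched nor the share of all genes with such a split is given, so the cases are not read as results. Cyba in dendritic cells over microglia was 1.08 and 1.15 in Sham, 0.948 and 0.981 in Mild, and 0.801 and 0.920 in Severe. Ncf1 in the same pair was 1.13 and 1.20 in Mild, 0.684 and 0.896 in Moderate, and 0.446 and 0.918 in Severe. Rac2 in border over monocyte-like macrophages was 1.08 and 1.31 in Severe, and 0.962 and 0.968 in Mild.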

How the results depend on the processing

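With 2 libraries a group and 2 unlike sham libraries, counts of called members against sham depended on the setting. The share of all genes called in each alternative is not given, so these counts are not read as a result about the members. In mononuclear phagocytes 1 member was called in Mild, against 2 with DESeq2, 2 without the low-count filter, and 0 with library size only, 0 with the replicate block and 0 with only the groups compared. In Moderate 0 became 1 with DESeq2 and 1 without the filter. In Severe 1 became 0 with library size only, 0 with the replicate block and 0 with only the groups compared. In macrophages of Mild 0 became 1 with DESeq2 and 1 without the filter, in neutrophils 0 became 2 in Mild with library size only and 1 in Moderate without the filter. Without the library block, that is with no replicate block, the calls fell from 5 to 2 for lipid-laden against monocyte-like, from 3 to 1 for border against monocyte-like and from 4 to 1 for border against lipid-laden macrophages. Leaving out 1 library gave, in Mild, Moderate and Severe, 0 to 3, 0 to 2 and 0 to 2 calls over all kept cells, 0 to 3, 0 to 1 and 0 to 3 in mononuclear phagocytes, and 0 to 2, 0 to 2 and 0 to 1 in microglia. It gave 0 to 1 in Mild macrophages, 0 to 1 in Moderate neutrophils, 2 to 4 for B cells against microglia and 0 to 1 for the term of class and injury. In mononuclear phagocytes the deviation of library 1 from its group mean was correlated between groups over 13201 genes. Pearson's r was 0.146, -0.191, 0.0742, -0.0898, 0.246 and -0.237 over the 6 pairs of groups. These values had no common sign, and libraries were not treated as paired by number in the main fits. Ncf1 in B cells against microglia, -0.43, was 0.31 with at least 100 cells and ranged from -1.32 to 0.31 with 1 library left out. Cybb in fibroblasts against oligodendrocytes, -0.26, ranged from -0.51 to 0.45, the last without Sham 2, and the cause was not tested. Of 1950 refitted fold changes 72 changed sign.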
